A study of Homo sapiens with 22 samples.

Results

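The 63 reporter tags described here gave strong RNA signals in both of 2 human lung cancer cell lines, A549 and H520, relative to the H520 plasmid input. They were selected on measured values, out of 211385 tags with at least 100 counts in each of 2 plasmid input libraries. In all, 238017 tags were listed in the 22 libraries. The values that chose the members were their levels in the RNA libraries. A tag's level is log2 of its RNA TPM (tags per M of counts) plus 0.5 over its TPM in the H520 input plus 0.5, less the median of that library, so the typical tag is at 0. A member had a mean level of at least 6 over the 10 A549 libraries, which is 64-fold above the typical tag. It also had a mean level of at least 1, or 2-fold, over the 10 H520 libraries. Levels against the H520 input are therefore given as a description, without a test. The rule used the A549 input only through the minimum of 100 counts, and it did not use BaP responses.

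The study transfected a pool of tagged luciferase plasmids into A549, a line from a lung adenocarcinoma, and H520, a line from a lung squamous cell carcinoma. Each line received either benzo(a)pyrene (BaP) at 10 µM or DMSO, the solvent used as vehicle, in 5 transfections per group. The BaP exposure was 18 h long in A549 cells and 42 h long in H520 cells, so line and exposure time cannot be told apart. The DNA of the plasmid pool was sequenced as 1 input library for each line, and the labels of these inputs carry different version marks (v1 for A549 and v2 for H520). The labels do not say whether the transfections of a group came from separate cultures, so the p-values below measure the spread between these libraries only.

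In a tagged reporter assay each plasmid carries a cloned fragment beside a promoter and a short tag in the transcribed part of the reporter gene. Reads of a tag in RNA, divided by its reads in plasmid DNA, measure how strongly the fragment drives transcription. Benzo(a)pyrene is a combustion product in tobacco smoke that binds the aryl hydrocarbon receptor, a transcription factor that then enters the nucleus and switches on genes for metabolic enzymes. No table pairing tags with fragments or alleles was used here. Tags of the same fragment may be among the members, so they are not independent of each other and their number is not a number of fragments.

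The members were numbered M01 to M63 by falling A549 level. A tag has 15 bases, read as deposited: the first 12 differ between tags and are in capitals, while the final 3, in small letters, never vary. The 5 members with the highest A549 level and the 5 with the highest H520 level are shown because they mark the top of each line. No tag is in both sets.
M01: GGTCGTTATAAGggc
M02: CGACGCGTATTGggc
M03: CGGTACTTGCAAggc
M04: GGCCGTCCAACGggc
M05: GCGAACGAGTCCggc
M10: TGCGCGTCGAAAggc
M46: GCGCATCGTTAGggc
M35: CGCCGTCGAAAGggc
M18: CAAGCCATCTACggc
M22: GTTCGCGAGTAAggc
The tags nearest the limits are shown next, to let the edges of the group be seen. Those just inside the A549 limit were M63, at 6.01, and M62, at 6.05. Just outside it were CCGCCGATACTTggc, at 5.999, and CTTCGTTACTCGggc, at 5.99. Just inside the H520 limit were M60, at 3.02, and M42, at 3.08. Just outside it were ATCCGGTATCATggc, at -0.06, and ACGACCTACTGCggc, at -0.14.
M63: ACCGCGAATTAGggc
M62: AGTCGGACGATTggc
M60: ATCCGGTCGTCCggc
M42: GAACGTTCGTCTggc
The A549 limit thus cut through a continuous run of tags, whereas the H520 limit did not. Of 68 tags with an A549 level of 6 or more, 63 were at 3.02 or above in H520 and 5 were at -0.06 or below. The number of tags between them was 0.

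The member sequences showed few shared features. The 12 variable bases held 5.87 ± 1.41 G or C (SD between the 63 tags), with a range of 3 to 9, against 5.73 ± 1.499 over all 211385 tags. The dinucleotide CG was in 54 of 63 members, or 85.7%, and in 83.4% of all tags. A run of 3 equal bases was in 20.6% of the members and 27.8% of all tags. The core of the element bound by the aryl hydrocarbon receptor, GCGTG, searched on both strands of the 12 bases, was in 0 members and in 0% of all tags. The AP-1 sequence TGACTCA or TGAGTCA, also on both strands, was in 0 members and in 0.0449% of all tags. The polyadenylation hexamer ATTAAA was in 0 members and in 0.498% of all tags, and AATAAA was in 0 members and in 0% of all tags. These motifs were looked for in the tag alone, not in the cloned fragment that it marks.

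Of 1953 pairs of members, 0 differed at a single base, and the most frequent distance was 9 of the 12 bases, in 481 pairs. Distances between other tags were not computed. The closest pair, at 2 mismatches, is shown because its 2 tags fell into different patterns across the A549 libraries, described below.
M48: TTTAGTTCGGATggc
M59: ATTAGTTCGGGTggc

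Tags that differ from a member at 1 base served as a measurement of signal beside the members. All 63 members had such a neighbour, and 239 of 262 listed neighbours had at least 100 counts in both inputs. Neighbours lay near the typical tag in A549, with a median level of 0.21, a 5th percentile of -0.39 and a 95th percentile of 1.49. In H520 their median was 0.04. The A549 level was at least 1 in 24 neighbours, or 10.0%, against 1.80% of all tags, and the H520 level was at least 1 in 3, or 1.26%, against 1.04%. The neighbour with the highest A549 level was CCGCGCTATCTGggc, at 3.36, beside M53, whose sequence is CCGCGCTATCCGggc. Reads of a neighbour in A549 RNA above its H520 input came to a median of 0.0041% of the reads of its member, with a 95th percentile of 0.477%. In H520 RNA the same fraction had a median of -0.063% and a 95th percentile of 2.26%. How many of these reads came from the member was not tested.

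The level of the members in A549 ran from 6.01 to 8.25 with a median of 7.18, which is 64.6-fold to 305-fold above the typical tag with a median of 145-fold. In H520 it ran from 3.02 to 4.94 with a median of 4.05, which is 8.10-fold to 30.6-fold with a median of 16.5-fold. Every member was therefore higher in A549, by 2.10 to 4.45 with a median of 3.12 on the log2 scale. The rule fixed this direction, since its A549 limit of 6 was above the highest H520 level of any tag, 4.94. The members were 61 of the 63 tags with the highest A549 level but 36 of the 63 with the highest H520 level. M10 had the highest H520 level of all tags, 4.94.

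M01, at the top in A549, showed the size of the signal in single libraries. In the DMSO libraries of transfections 1 to 5 it stood at 1184, 508, 484, 1228 and 1544 TPM, and in the BaP libraries at 518, 592, 1094, 1573 and 1759 TPM. Both A549 groups held low and high libraries, and they overlapped over nearly their whole range. In H520 its values were 44.9, 60.7, 67.5, 74.7 and 53.3 TPM under DMSO and 42.1, 60.9, 67.2, 64.8 and 48.8 TPM under BaP. The H520 libraries were closer together and all far below the A549 libraries, and the groups overlapped there too. Its mean level was 8.17 ± 0.83 (SD, n = 5) under DMSO and 8.34 ± 0.86 under BaP in A549, and 4.15 ± 0.29 and 4.07 ± 0.29 in H520.

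M10, at the top in H520, had A549 TPM values similar to those of M01 and higher H520 TPM values. Its H520 input was also higher, at 6.28 TPM against 3.07 TPM for M01. The mean A549 level was lower for M10, at 7.63 against 8.25. The A549 values of M10 were 1182, 868, 661, 1301 and 1852 TPM under DMSO and 675, 821, 1366, 1613 and 2083 TPM under BaP. In H520 it stood at 159, 205, 234, 252 and 181 TPM under DMSO and at 149, 192, 230, 212 and 165 TPM under BaP. As with M01, the BaP and DMSO libraries overlapped in both lines. In A549 the mean level of M10 was 7.56 ± 0.62 under DMSO and 7.70 ± 0.74 under BaP (SD, n = 5), and in H520 it was 5.00 ± 0.27 and 4.88 ± 0.26.

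The difference between the lines varied among the members. It was greatest for M05, at 4.45, followed by M01, at 4.14. In the TPM values of M05 the A549 DMSO libraries read 339, 149, 131, 334 and 454 and the H520 DMSO libraries 10.8, 13.3, 14.6, 17.6 and 10.8. The smallest difference was that of M53, at 2.10, followed by M46, at 2.15. For M53 the A549 DMSO libraries read 473, 346, 277, 518 and 729 TPM and the H520 DMSO libraries 95.9, 120, 144, 154 and 112 TPM. In the BaP libraries M05 read 146, 162, 313, 406 and 550 TPM in A549 and 8.66, 12.5, 15.3, 15.4 and 11.7 TPM in H520. M53 read 269, 317, 541, 599 and 837 TPM in A549 under BaP and 89.9, 110, 140, 122 and 99.0 TPM in H520. For both tags all A549 values lay above all H520 values. The range of the difference over members was 5.10-fold on the linear scale.

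The share of all counts that went to the 63 members gives their weight in a library without a denominator. It was 4.32% ± 1.87 (SD, n = 5) in A549 under DMSO and 4.83% ± 2.37 under BaP, with single libraries between 2.27% and 7.82%. In H520 it was 0.587% ± 0.101 under DMSO and 0.545% ± 0.091 under BaP, with single libraries between 0.430% and 0.711%. The members therefore took more of the counts in every A549 library than in any H520 library. The rule favoured this direction, because its limit was higher in A549. Their share was 0.194% in the A549 input (95% Wilson interval 0.1937% to 0.1946%) and 0.0277% in the H520 input (0.0275% to 0.0279%). These intervals cover counting error only.

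Depth did not limit the RNA values. Libraries held 177.6 to 371.4 M counts. A member had 8625 to 1081548 counts in an A549 RNA library, with a median of 134784, and 1520 to 147657 counts in an H520 RNA library, with a median of 15943. Input counts were lower: 1309 to 30348 in the A549 input, with a median of 9043, and 181 to 4289 in the H520 input, with a median of 1065. The denominators of the level therefore carry more counting error than the numerators. M05, for example, had 185 counts in the H520 input, with an exact Poisson 95% interval of 159 to 214.

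The inputs of the 2 lines gave different values for the members. Their median was 27.1 TPM in the A549 input and 4.01 TPM in the H520 input, while the median over all tags was 3.85 and 3.88 TPM. The ratio of A549 input to H520 input was above 1 for all 63 members, from 3.09 to 19.8 with a median of 6.87, against a median of 0.993 over all tags. It was greatest for M05, at 19.8, and M02, at 14.8, and smallest for M63, at 3.09, and M62, at 3.48. For comparison, 175 tags with an A549 level of 4 to under 6 and an H520 level of at least 1 had a median ratio of 1.98. A further 92 tags with an A549 level of at least 4 and an H520 level under 0.5 had a median of 1.93. The rule did not use the ratio itself, but it used the H520 input as the denominator of both levels and set a minimum count in each input.

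Read against the A549 input, the levels were lower. In A549 they ran from 4.32 to 4.83 with a median of 4.57, and in H520 from -0.03 to 2.62 with a median of 1.38. The 63 members then differed less among themselves in A549, with an SD between tags of 0.10 in place of 0.49. In H520 the SD between tags was 0.57 in place of 0.48. All 63 members were still at 4 or above in A549, 49 were at 1 or above in H520, and 3 were under 0.5 there. Against the A549 input the members were thus strong in A549 and mostly modest in H520. None reached the A549 limit of 6 on this scale, where the highest level of any tag was 4.93. On it 144 tags stood at or above the lowest member in A549, and 27 members were among the 63 highest.

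Across the 63 tags, A549 RNA followed the A549 input closely. The Pearson correlation of mean A549 RNA TPM with A549 input TPM was 0.997, against 0.872 with H520 input TPM. H520 RNA TPM had a correlation of 0.837 with the A549 input and 0.940 with the H520 input. These are descriptions across tags of 1 pool, which share libraries and differ in how much plasmid each tag has, and no test applies. The A549 level had a correlation of 0.897 with log2 of the input ratio, and both contain the H520 input. The difference between the lines, in which the H520 input of the tag cancels, had a correlation of 0.746 with it, with a slope of 0.82. Among the H520 levels the correlation with log2 of the input ratio was 0.086.

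The TPM by which the A549 input exceeded the H520 input was a narrow fraction of the A549 RNA. It came to 2.89% to 4.38% of the mean A549 RNA TPM of the member, with a median of 3.67%. For M01 it was 39.8 TPM of 1049, or 3.80%. The median was 3.50% for the 175 tags and 2.19% for the 92 tags named above. Across members, the excess had a correlation of 0.994 with A549 RNA TPM. Within single A549 libraries the coefficient of variation of this fraction over the 63 members lay between 6.60%, in BaP transfection 5, and 19.4%, in DMSO transfection 2. What part of the A549 input and of the A549 levels this concerns was not tested.

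The A549 libraries differed from each other in the level of the members by more than the H520 libraries did. Median member levels in the DMSO libraries of transfections 1 to 5 were 7.40, 6.41, 6.30, 7.52 and 7.93, and in the BaP libraries 6.25, 6.55, 7.47, 7.90 and 8.19. Thus 4 libraries were low, DMSO transfections 2 and 3 and BaP transfections 1 and 2, at medians of 76.3-fold to 93.4-fold. The other 6 stood at 169-fold to 292-fold. In H520 the medians were 3.66, 4.11, 4.29, 4.43 and 3.95 under DMSO and 3.59, 4.12, 4.27, 4.25 and 3.82 under BaP, or 12.0-fold to 21.6-fold. The H520 libraries of transfection 1 were the lowest of their group in both treatments.

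The members moved together from library to library. Over the 10 A549 libraries, the correlation between the profiles of any 2 members was at least 0.955, with a median of 0.991. In H520 it was at least 0.800, with a median of 0.973. The SD of a member's level over the 10 libraries was 0.63 to 0.88 in A549 (median 0.82) and 0.18 to 0.34 in H520 (median 0.26), where the median over all tags was 0.10 in both lines. M59 had the largest in A549, and M34, with the sequence CGTACGCTTGACggc, the largest in H520. The 175 tags with lower A549 levels had a median SD of 0.76 in A549, and their library medians ran from 3.72 to 5.74. The 92 tags low in H520 had a median SD of 0.19, and their library medians ran from 5.11 to 5.68. All libraries were scaled to the typical tag, and what set the low libraries apart was not tested.

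Within this common movement the A549 profiles fell into 2 patterns. They were found by average linkage of the members' centred A549 levels, which joined the last 2 groups at a distance of 0.730 after 0.356 for the merge before it. The flatter pattern, with 21 members, had an SD over the A549 libraries of 0.63 to 0.69. The steeper pattern, with 42 members, had an SD of 0.73 to 0.88. These groups were made from the A549 levels, so their A549 profiles are shown as a description. Of the tags printed above, M02, M10, M46, M35, M18, M22, M48 and M53 were of the flatter pattern and M01, M03, M04, M05, M59, M60, M62 and M63 of the steeper one, as were M42 and M34.

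The 2 patterns had nearly the same A549 level, with a median of 7.18 in the flatter and 7.19 in the steeper pattern. Their H520 levels against the H520 input, which were not used to form them, lay apart. In the flatter pattern the H520 level ran from 4.31 to 4.94 with a median of 4.63, and in the steeper pattern from 3.02 to 4.34 with a median of 3.77. Only M25 of the steeper pattern was above the lowest flatter tag. Against the A549 input the H520 levels of the patterns overlapped widely. They ran from 0.87 to 2.62 with a median of 1.99 in the flatter pattern, and from -0.03 to 2.09 with a median of 1.10 in the steeper. The flatter tags also had more counts in the A549 input, with a median of 13472 against 6609. The difference between the lines had a median of 2.69 in the flatter and 3.44 in the steeper pattern. Since tags may share a fragment, the gap is given without a test.

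The gap held in each H520 library and changed sign between A549 libraries. In H520 the flatter median exceeded the steeper median by 0.67 to 0.98, with a mean of 0.84 ± 0.10 (SD, n = 10). In A549 the same difference was -0.35, 0.43, 0.30, -0.08 and -0.12 in the DMSO libraries of transfections 1 to 5. It was 0.08, 0.18, 0.04, -0.18 and -0.19 in the BaP libraries. The flatter tags were thus above the steeper ones in the 4 libraries where members were low and in BaP transfection 3, and below them in the other 5. Clustering the H520 profiles into 3 groups gave 1 of 22 tags with all 21 flatter members and M52, 1 of 40 steeper members and 1 of M05 alone.

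Within each pattern the difference between the lines followed the input ratio more closely than over all members, with correlations of 0.914 over the 21 flatter and 0.836 over the 42 steeper tags. The closest pair by sequence, M48 and M59, was split by the patterns. In A549 M48 stood at 573, 398, 373, 744 and 900 TPM under DMSO and at 289, 405, 706, 918 and 1000 TPM under BaP. M59 stood at 307, 122, 123, 338 and 404 TPM under DMSO and at 119, 151, 285, 442 and 478 TPM under BaP. Both tags were low in the same 4 A549 libraries, and the SD of the level over the 10 libraries was 0.69 for M48 and 0.88 for M59. In H520 M48 stood at 89.1, 108, 117, 127 and 100 TPM under DMSO, with a mean level of 4.38 ± 0.20 (SD, n = 5). M59 stood at 26.3, 37.2, 37.4, 41.2 and 30.5 TPM there, with a mean level of 3.53 ± 0.26. The H520 DMSO libraries came in the same order for both tags, from transfection 1 as the lowest to transfection 4 as the highest.

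The response to BaP, which the rule did not use, was the difference between 5 BaP and 5 DMSO libraries of a line. In A549 no member passed edgeR's quasi-likelihood test with Benjamini-Hochberg adjustment at an adjusted p of 0.05, and neither did any of the 223066 tags tested (0%). At an unadjusted p under 0.05 there were 0 of 63 members, against 2.60% of all tags. The fitted log2 fold changes of the members were 0.14 to 0.24 with a median of 0.19 and SEs of 0.34 to 0.56. All 63 were above 0, as were 49.3% of all tags. Members move together from library to library, so the shared sign counts as 1 observation and not as 63. DESeq2 called 0 tags in A549.

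That sign in A549 depended on single libraries. In the edgeR fit, 0 of 63 members were above 0 without BaP transfection 5, 56 were without DMSO transfection 2 or without DMSO transfection 3, and 62 were without BaP transfection 4. Over all 10 leave-outs the median fitted change ran from -0.08 to 0.44. The median difference in level, 0.16 with all libraries, was -0.08 without BaP transfection 5, -0.03 without DMSO transfection 2 and -0.06 without DMSO transfection 3, and 0.0065 without BaP transfection 4. Transfections differed more than treatments. The median difference of BaP less DMSO was -1.28, 0.22, 1.25, 0.35 and 0.26 in transfections 1 to 5. All 63 members were lower under BaP in transfection 1, 47 were higher in transfection 2, and all 63 were higher in transfections 3, 4 and 5. The patterns differed in size here: in transfection 1 the median difference was -0.92 in the flatter and -1.31 in the steeper pattern, and in transfection 2 it was -0.04 and 0.25. Over all tags 49.8% to 50.6% were higher under BaP in single A549 transfections. The 175 tags with lower A549 levels differed by -1.24, 0.17, 1.15, 0.28 and 0.30 in transfections 1 to 5, and the 92 tags low in H520 by -0.14, 0.28, 0.002, -0.007 and -0.22. The same number in 2 groups is a label here, and no source says that it marks a shared culture or day. Deviations from the group over 223690 tags had correlations of 0.02 between DMSO and BaP in transfection 1 and -0.01 in transfection 3. In transfections 2, 4 and 5 these correlations were 0.31, 0.39 and 0.48. The 2 largest differences, -1.28 and 1.25, thus came from numbers whose 2 libraries did not deviate alike.

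The member with the smallest p in A549 was M06, of the flatter pattern, with the sequence ATACTACCGGAAggc. It stood at 1275, 840, 781, 1502 and 1922 TPM under DMSO and at 657, 857, 1536, 1859 and 2205 TPM under BaP. The 2 groups overlapped, and its log2 fold change was 0.20 with an SE of 0.37 and an adjusted p of 0.9999 by edgeR's quasi-likelihood test. M01 had a log2 fold change of 0.19 with an SE of 0.49. With errors of this size, the A549 libraries leave changes of either sign within 2 SEs for every member.

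In H520 the fitted values of the members were slightly below 0 under BaP, and none passed edgeR's quasi-likelihood test at an adjusted p of 0.05, nor did any of 223732 tags tested (0%). At an unadjusted p under 0.05 there were 0 members, against 4.71% of all tags. DESeq2 called 5 tags higher and 6 lower, and 0 of them were members. Log2 fold changes were -0.17 to -0.03 with a median of -0.09 and SEs of 0.11 to 0.23. All 63 were below 0, against 50.0% of all tags. Members move together in H520 too, so this shared sign counts as 1 observation and not as 63. Leaving out single libraries moved the median from -0.18 to -0.0006. Without BaP transfection 1, 30 members were above 0, and without DMSO transfection 4, 31 were. All these fits left the transfection number out, and the outcome depended on that. With the number as a block, edgeR's quasi-likelihood test called 12 of the 63 members lower, against 0.0286% of all tags. Of the members 51 then had an unadjusted p under 0.05, against 6.15% of all tags. These counts of members are not counts of independent observations either. No source says that the numbers pair the libraries.

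M15, of the flatter pattern, with the sequence TAGCCGAGAGGTggc, had the smallest p in H520. It read 216, 255, 293, 311 and 255 TPM under DMSO and 204, 224, 291, 245 and 220 TPM under BaP. The BaP library of transfection 1 was below all DMSO libraries, and the other 4 BaP libraries lay within the DMSO range. The log2 fold change of M15 was -0.17 with an SE of 0.13 and an adjusted p of 0.998 by edgeR's quasi-likelihood test. By transfection, the median difference over members was -0.08, -0.03, -0.01, -0.20 and -0.14, with 10, 13, 23, 0 and 3 of the 63 members higher under BaP.

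The difference between the lines in the BaP response was tested as an interaction. Among 222669 tags none was called (0%) by edgeR's quasi-likelihood test at an adjusted p of 0.05, and no member was. At an unadjusted p under 0.05 there were 0 members, against 3.45% of all tags. The interaction terms, H520 response less A549 response, were -0.33 to -0.24 with a median of -0.29 and SEs of 0.44 to 0.59. All 63 were below 0, against 49.9% of all tags, and without A549 BaP transfection 5, 31 were above 0. Here too the shared sign counts as 1 observation. The smallest p was that of M40, of the flatter pattern, with the sequence CGAATCCGACGAggc, with a term of -0.32 and an SE of 0.45. These tests compare lines that were also exposed for different times.

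No member had BaP levels that lay wholly above or below its DMSO levels in either line. Over all 211385 tags the 5 BaP and 5 DMSO libraries did not overlap for 0.476% in A549 and 0.807% in H520. Relative to either input, the group means of the median member level were close between treatments. Against the H520 input they were 7.11 ± 0.72 under DMSO and 7.27 ± 0.84 under BaP in A549, and 4.09 ± 0.30 and 4.01 ± 0.30 in H520 (SD, n = 5 each). Against the A549 input they were 4.45 ± 0.81 and 4.63 ± 0.87 in A549, and 1.41 ± 0.24 and 1.32 ± 0.24 in H520. The differences between treatments were smaller than the SD between transfections in both lines. That SD describes single libraries and is not the error of a difference between means. The input value of a tag is the same for both treatments, so the second input is no separate check of these differences. In H520 this SD includes differences between transfection numbers seen in both treatments, with transfection 1 the lowest in each.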

How the data were processed

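Amplicon libraries of reporter tags from 20 RNA samples and 2 plasmid inputs were used. Per the file headers, the deposited files hold a raw count and a TPM for every tag. Dividing the deposited count by the library total, in M, gave the deposited TPM. The software bcl2fastq is named, with no version, in the submitters' processing notes. How reads were matched was not given in the sources used here. No molecular identifiers are described, so a count is not a molecule.

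Tables were merged by tag, and an unlisted tag was set to 0. Members had at least 100 counts in both inputs. Levels used a pseudocount of 0.5 TPM and were centred on the library median. BaP was tested on the deposited counts of tags with at least 10 input counts, with edgeR 4.0.16 in R 4.3.3 (quasi-likelihood, TMM, filterByExpr, robust), with the 10 libraries of a line in each fit and the 20 of both lines in the interaction. An SE given with an edgeR fold change is the absolute log2 fold change divided by the square root of the test's F value. DESeq2 1.42.0, other pseudocounts, other input minimums, other inputs, a replicate block and leaving out each library were alternatives. The edgeR script was tested on simulated counts drawn independently for each tag and library, without the shared shifts of the members between libraries. That test therefore does not show the power for the members.

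Other values were computed with Python 3.11.15, numpy 2.4.6, pandas 2.3.3 and scipy 1.17.1. Replicates were compared first, and in none of the 40 pairs compared did the 2 libraries agree within sampling noise. The tags named were the 5 with the highest level in each line, the 2 with the largest and the 2 with the smallest difference between lines and input ratio, those with the smallest p in each BaP comparison, those with the largest SD in each line, and those nearest the limits. M25, M48, M52 and the neighbour of M53 were named after their values were seen. The members and lists were chosen with earlier results of these data known.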

Additional observations from a re-analysis of the deposited data

How the results depend on the processing

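The number of members depended on the denominator and the pseudocount. The rule found 0 tags with the A549 input or with the mean of both inputs as denominator, 33 with a pseudocount of 5 TPM, 69 with 0.1 TPM and 50 with an input minimum of 500 counts. The median A549 level of the 63 tags was 4.57 with the A549 input, 5.37 with the mean of both and 6.10 with 5 TPM, and their H520 median was 1.38, 2.14 and 2.99. Leaving out a library gave 61 to 68 members, an A549 median of 7.07 to 7.28 and an H520 median of 4.005 to 4.10. It moved the median BaP less DMSO level difference from -0.08 to 0.42 in A549 and from -0.19 to 0.01 in H520, and called 0 tags in each comparison. DESeq2 called 11 tags in H520, 0 of them members.

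With the replicate number as a replicate block, edgeR called 150 tags in H520, 86 higher (0.0384%) and 64 lower (0.0286%), and 0 in A549 and in the interaction. Of the members 12 were called in H520, all lower, with an adjusted p down to 0.00224 by edgeR's quasi-likelihood test. Of these, 11 were of the flatter pattern. An unadjusted p under 0.05 was found for 51 members, against 6.15% of all tags. Members move together from library to library, so these are not counts of independent observations. No source says that the numbers pair the libraries. Over 223690 tags in A549, deviations of libraries of equal number had correlations of -0.01 to 0.48, with 3 of 5 over 0.1. Over 224276 tags in H520 they were 0.04 to 0.15, with 1 of 5. The members' own deviations from their group in H520 transfections 1 to 5 were -0.38, 0.02, 0.18, 0.33 and -0.14 under DMSO. Under BaP they were -0.36, 0.09, 0.26, 0.22 and -0.18. In A549 they were 0.42, -0.84, -0.90, 0.45 and 0.87 under DMSO and -1.01, -0.78, 0.19, 0.63 and 0.98 under BaP. A library correlated best with its own number in 5 of 10 cases in A549 and 9 of 10 in H520, which is a hint from the data, not from the design. The cause of these changes was not tested. The H520 input, with as few as 181 counts for a member, limits the precision of the levels.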
